A study of Mus musculus with 10 samples.

Results

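This account covers 10 genes of ligand sensing in the epithelium of the mouse colon, out of 56748 genes in the deposited table: the receptor genes Nr1i2 (PXR), Nr1i3 (CAR), Nr1h2 (LXRβ), Nr1h3 (LXRα), Nr1h4 (FXR), Vdr and Ahr, and the feedback genes Nr0b2, Ahrr and Tiparp. They were chosen by symbol, and each symbol matched 1 protein-coding row. The samples were colon organoids, epithelial cultures grown from crypts, given either vehicle (5 libraries, replicates 1 to 5) or 100 µM WY-14643, an agonist of the fatty acid receptor PPARα (5 libraries, replicates 6 to 10). Treatment began 3 days after passage and lasted 2 days in both groups, and neither group is labelled with a genetic change. Without pairing of libraries, the p-values measure the spread between libraries of 1 group. Where libraries are matched in pairs across the groups, they measure the spread of the differences within pairs. The labels name no mouse, organoid line or culture day, so either spread may be technical.

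PXR and CAR are nuclear receptors that bind foreign compounds, steroids and bile acids and turn on genes of drug oxidation, conjugation and export. LXRα and LXRβ bind oxysterols and drive sterol efflux and lipid synthesis, FXR binds bile acids, and VDR binds the active form of vitamin D. These receptors act together with RXR, the partner that PPARα also uses. AhR is a receptor of another protein family. It binds dioxins, plant indoles and microbial tryptophan products, pairs with ARNT, and is held back by the products of 2 of its own target genes, the repressor gene Ahrr and the ADP-ribosyltransferase gene Tiparp.

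Of the 10 genes Nr1i2 alone passed a test, and only once libraries were compared within matched pairs, where it was higher with WY-14643. It was higher in each of 5 pairs, 1.29-fold to 1.70-fold in FPKM, but the call was lost when any 1 pair was left out, with no filter on low values or with a smaller pseudocount. The other sensors that could be tested, Nr1h2, Nr1h4, Vdr, Ahr and Tiparp, passed no test. Nr1h4, Vdr and Tiparp varied several-fold from pair to pair, and so did Nr1i2 itself, with a 4.90-fold range over the libraries. Nr1i3, Nr1h3 and Ahrr lay near 0, and Nr0b2 had no read in any library.

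Promoters are shown for Nr1i2, the member called in the matched fit, and for Ahrr and Tiparp, the feedback genes that AhR is known to induce. The AhR core motif, GCGTG on either strand, is in capitals, as is any nuclear receptor half-site, AGGTCA on either strand. Sequences are RefSeq's on build GRCm38.p6, read 5′ to 3′ along the gene. For Nr1i2 (chr16:38294825-38295074, minus strand) and Ahrr (chr13:74292332-74292581, minus strand) they span the 250 bases before the start. For Tiparp (chr3:65528197-65528396, plus strand) they end 50 bases earlier, since another annotated transcript starts in between.
Nr1i2: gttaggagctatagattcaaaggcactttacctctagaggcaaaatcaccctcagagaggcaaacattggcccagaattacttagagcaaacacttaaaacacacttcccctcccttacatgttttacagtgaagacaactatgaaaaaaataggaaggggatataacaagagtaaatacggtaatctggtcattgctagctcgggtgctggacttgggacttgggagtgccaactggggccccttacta
Ahrr: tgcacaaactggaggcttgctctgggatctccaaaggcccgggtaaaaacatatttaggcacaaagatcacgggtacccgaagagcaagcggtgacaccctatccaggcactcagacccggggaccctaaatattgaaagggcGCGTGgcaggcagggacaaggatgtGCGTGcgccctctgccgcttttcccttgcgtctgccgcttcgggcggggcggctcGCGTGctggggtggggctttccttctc
Tiparp: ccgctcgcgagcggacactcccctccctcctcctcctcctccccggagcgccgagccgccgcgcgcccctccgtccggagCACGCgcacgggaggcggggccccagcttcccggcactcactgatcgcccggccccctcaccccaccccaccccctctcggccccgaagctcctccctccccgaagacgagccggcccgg

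Ahrr held 3 copies of the AhR core motif and Tiparp 1, and among the other members with a sequence Vdr and Nr0b2 held 1 each. Of 32851 mouse windows of 300 bases, 32.4% held at least 1. The half-site was found once, in the window of Nr1h4, against 16.3% of all windows. The Nr1i2 window held neither. Pairs of half-sites in tandem, spaced by 1, 3 or 4 bases (DR1, DR3 and DR4) and searched in full on both strands, were in none of the members' windows and in 13, 2 and 5 of the 32851. A match of letters is a description, not a binding site. Sequences were at hand for 9 of the 10 members, with Ahr the exception.

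Between 15618244 and 29271304 reads stood behind each library, a number recovered from the FPKM values (fragments per kilobase of gene length, scaled per library by the authors). Libraries matched across the groups in numerical order, vehicle replicate 1 with WY-14643 replicate 6 and so on, since their deviations from the group means correlated at 0.423 to 0.782 across genes, against at most 0.0602 for the other combinations. The match was seen in the data and is not stated in the labels, so the main test left it out, and a matched fit is given beside it. As a check of the tissue, the colonocyte markers Car1 and Krt20 averaged 506 and 73.3 FPKM, while Car4 was at 0 in all libraries and Aqp8 averaged 0.297 FPKM. Summed markers of fibroblasts reached at most 0.164 FPKM, of endothelium 0.0409, of enteroendocrine cells 2.04 and of tuft cells 0.248. Immune markers summed to between 2.0 and 6.44 FPKM, mainly Cd68, and Albumin (Alb) was at 0. Of 6 small intestinal enterocyte markers, 2 had a mean of at least 0.5 FPKM, Alpi at 15.1 and Fabp2 at 9.20 FPKM on average, and the other 4 (Apoa1, Apoa4, Lct, Sis) averaged near 0. The 6 summed to 7.19 to 36.8 FPKM in vehicle and 9.27 to 76.6 FPKM in WY-14643 libraries.

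The levels of the members spanned a wide range. Since FPKM is scaled by gene length, genes can be compared on it, but only roughly, as overlapping and antisense genes cannot be told apart. The highest mean over all 10 libraries was that of Nr1h2, at 19.4 FPKM, followed by Tiparp at 14.8, Nr1h4 at 10.3, Ahr at 7.76 and Nr1i2 at 7.16 FPKM. Each of these 5 overlapped its neighbours in the range over libraries. Vdr averaged 1.84 FPKM, with its highest library (3.47 FPKM) just above the lowest of Nr1i2 (3.36 FPKM). Below a gap came Nr1h3 at 0.182, Ahrr at 0.131 and Nr1i3 at 0.0219 FPKM, which overlapped in turn, and Nr0b2 at 0.

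With limma on log2(FPKM + 1) and a threshold of 0.05 on the p adjusted over 13607 tested genes, 0 of the 6 tested members were higher and 0 lower. The same fit called 0% of all tested genes in each direction, so it separates the members from nothing. At an unadjusted p under 0.05 it held 0 of the 6 members and 205 of all genes, and voom on the recovered reads, which also called 0 genes, held 172. The matched fit, with pair as a block, called 1 member higher and 0 lower, where it called 0.287% of all tested genes higher and 0.0294% lower. The median log2 fold change of the 6 was 0.12, against -0.01 over all tested genes. In 2 of the 6, Nr1i2 and Nr1h2, WY-14643 was higher in 5 of 5 pairs, as in 5.63% of all tested genes, and in 0 of the 6 it was lower in 5 of 5, as in 6.09%. In 0 of the 6 did the groups separate, where every WY-14643 library was above every vehicle library in 0.243% of all tested genes and below in 0.11%.

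**Figure D1:**
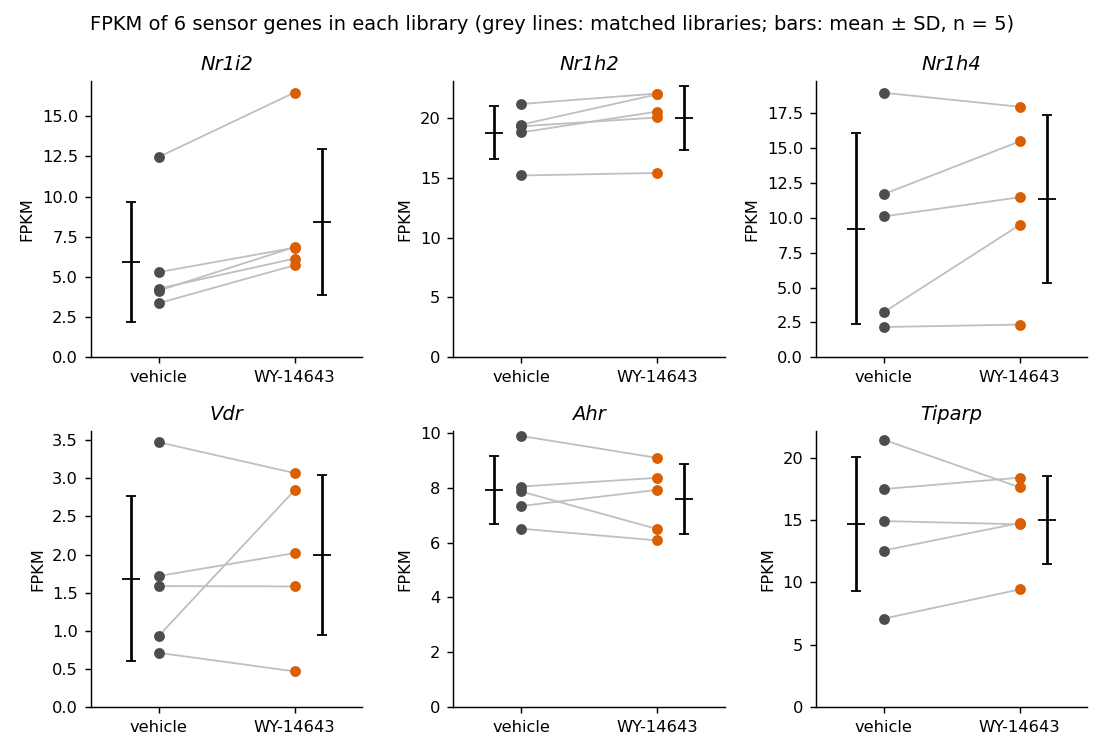
FPKM (vertical axes, from 0) of the 6 tested sensor genes in vehicle (grey points) and WY-14643 libraries (orange points). Grey lines join matched libraries and black bars give the mean ± SD of 5 libraries. All 5 lines of Nr1i2 rise, as do those of Nr1h2 by less, while those of Nr1h4, Vdr, Ahr and Tiparp go both ways.

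Nr1i2 encodes PXR, which in the gut controls cytochrome P450 and drug transporter genes. Its values were 3.36, 12.5, 4.14, 4.27 and 5.30 FPKM in vehicle replicates 1 to 5 and 5.72, 16.5, 6.86, 6.14 and 6.82 FPKM in WY-14643 replicates 6 to 10. The groups overlapped only through vehicle replicate 2, which lay above 4 of the WY-14643 libraries, and its match, replicate 7, was the highest of all. Group means were 5.91 ± 3.73 and 8.40 ± 4.54 FPKM (SD, n = 5 each). Without pairs the log2 fold change was 0.47 ± 0.34 (SE), with a 95% interval from -0.27 to 1.22 (limma, adjusted p = 1.0). Leaving out vehicle replicate 2 gave 0.75, and leaving out WY-14643 replicate 7 gave 0.22.

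Within pairs the difference was steady. On the log2(FPKM + 1) scale it was 0.62, 0.38, 0.61, 0.44 and 0.31 in pairs 1 to 5, which gave the same mean of 0.47 with an SE of 0.06 and an interval from 0.33 to 0.62. Nr1i2 thus rose in the matched fit (limma with pair as a block, adjusted p = 0.0462). The member was chosen with this call known, so it is no independent support. The call lies close to the threshold: it was lost when any 1 pair was left out (adjusted p between 0.0676 and 0.206), with no filter on low values (0.222) and with a pseudocount of 0.1 (0.0543). Voom on the recovered reads, with pairs, kept it (adjusted p = 0.00563) in a fit that called 1.4% of genes higher and 0.36% lower. The size and direction held in all of these, at 0.43 to 0.55.

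**Figure D2:**
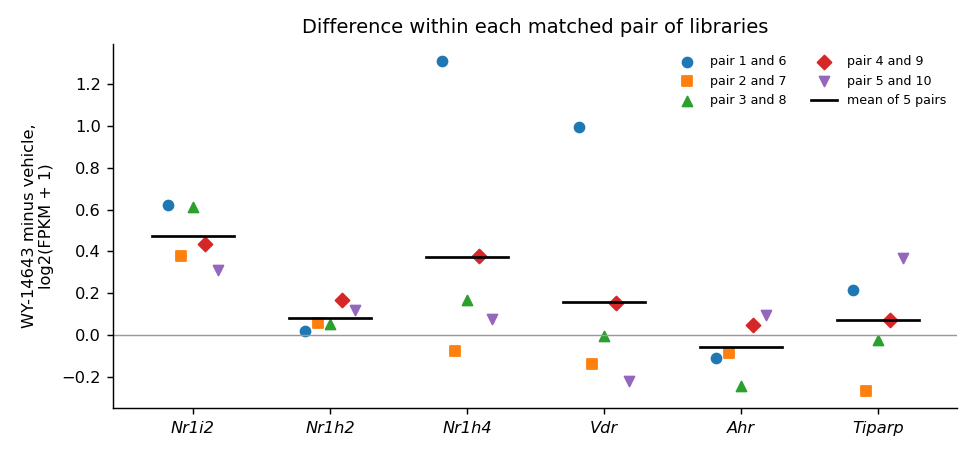
WY-14643 minus vehicle in log2(FPKM + 1) within each of the 5 matched pairs of libraries (symbols) for 6 genes, with the mean of the pairs as a black line. Nr1i2 is above 0 in every pair, from 0.31 to 0.62, as is Nr1h2, from 0.02 to 0.17, and the means of Nr1h4 and Vdr lean on pair 1.

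The gene is on chromosome 16 from 38068685 to 38115186 on the minus strand (ENSMUSG00000022809, build mm39). Among the genes whose log2(FPKM + 1) values ran most nearly with it over the 10 libraries, of 10374 protein-coding genes, were Cyp2j6, a cytochrome P450 gene (r = 0.98), and Chp1 (r = 0.96). These are descriptions over 10 libraries that come in pairs. Cyp2j6 was at 21.0 and 24.4 FPKM in vehicle replicate 2 and WY-14643 replicate 7 and at most 17.8 FPKM elsewhere, so the same pair stands out. Neither gene was called in the matched fit (limma, adjusted p = 0.173 and 0.427).

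Nr1i3, the gene of CAR, PXR's closest relative among the receptors here and best known from liver, was near the limit of detection. It had 0, 2, 0, 0 and 2 reads in vehicle replicates 1 to 5 and 3, 3, 0, 7 and 1 in WY-14643 replicates 6 to 10. The sums of 4 and 14 reads are too few to read a direction from, and the gene was below the filter of a mean of 0.5 FPKM. With no filter it did not pass (limma, adjusted p = 1.0, and 0.771 with pairs). It lies on chromosome 1 from 171041539 to 171048270 (ENSMUSG00000005677).

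Of the 31 genes listed as targets of PXR and CAR, 18 could be tested, and 0 passed in either direction in the fit without pairs or in the matched fit. The means were nevertheless mostly higher, in 16 of the 18, with a median log2 fold change of 0.56 against -0.01 over all tested genes. In 12 of the 18 WY-14643 was higher in 5 of 5 pairs, as in 5.63% of all tested genes, and in 0 lower, as in 6.09%. The list was drawn up with earlier results of these data known. It also mixes genes with several regulators, and its glutathione transferases, Cyp2c and Ugt1a genes have close relatives or shared exons among which reads may have been split.

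Aldh1a1, a retinaldehyde dehydrogenase, was at 27.7, 24.1, 14.7, 9.03 and 35.6 FPKM in vehicle and 46.6, 48.4, 48.5, 33.7 and 50.2 FPKM in WY-14643 libraries. Only WY-14643 replicate 9 lay below the highest vehicle library, and it stood well above its match, replicate 4. The log2 fold change was 1.13 ± 0.31 (SE; limma, adjusted p = 1.0, and 0.113 with pairs). Its relative Aldh1a7 averaged 2.84 ± 1.66 and 8.26 ± 4.27 FPKM (adjusted p = 0.118 with pairs).

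Abcb1a, which encodes the drug efflux pump P-glycoprotein, was at 17.8, 56.9, 34.7, 40.5 and 24.7 FPKM in vehicle and 39.5, 85.5, 53.1, 77.1 and 32.8 FPKM in WY-14643 libraries. Each WY-14643 library stood above its match while the groups overlapped widely (limma, log2 fold change 0.72 ± 0.34 (SE), adjusted p = 1.0, and 0.0614 with pairs). Gstm1, a glutathione transferase, averaged 22.8 ± 6.95 and 37.9 ± 13.9 FPKM (adjusted p = 0.0747 with pairs). The export pump gene Abcc3 was at 57.7 ± 9.29 and 66.0 ± 7.55 FPKM, and Gsta4, the most abundant gene of the list, at 326 ± 105 and 348 ± 78.9 FPKM. With pairs and voom on the recovered reads, a fit that called 1.4% of all genes higher and 0.36% lower, 6 genes of the list were called higher, Abcb1a, Aldh1a7 and Gstm1 among them. Without pair 1 the matched fit called Gstm1 (adjusted p = 0.0299).

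The classical reporters of PXR and CAR in mouse liver were scarcely present. Cyp3a11 was at or below 0.712 FPKM in every library and highest in vehicle replicate 5 and its match, replicate 10. Cyp2b10 averaged 0.0461 and 0.0301 FPKM. Cyp3a13, the only listed Cyp3a gene that could be tested, was more abundant, at 9.41 ± 7.48 and 7.61 ± 5.35 FPKM. It leaned against most of the list, with a log2 fold change of -0.21 ± 0.46 (SE), lower in 4 of 5 pairs (limma, adjusted p = 0.466 with pairs). The other tested gene with a lower mean was Sult1a1, with a log2 fold change of -0.13, higher in 3 of 5 pairs. Cyp2c55, a P450 of the colon, averaged 39.5 ± 47.8 and 81.9 ± 73.1 FPKM and ranged from 3.60 to 186 FPKM over all libraries. It was higher in 5 of 5 pairs, as were 5.63% of all tested genes. Its log2 fold change was 1.19 ± 0.98 (SE; limma, adjusted p = 0.093 with pairs). Like the summed colonocyte markers, which are mainly Car1, it was lowest in replicates 5 and 10 and highest in pairs 2 and 4. The part of those markers was not tested.

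The LXR genes were unequal in level. Nr1h2, which encodes LXRβ, was at 15.2, 21.2, 19.3, 19.5 and 18.8 FPKM in vehicle and 15.4, 22.1, 20.1, 22.0 and 20.5 FPKM in WY-14643 libraries. Vehicle replicate 1 and its match were lowest, and the largest value was 1.45 times the smallest, the narrowest spread among the members. The log2 fold change was 0.08 ± 0.12 (SE), with an interval from -0.18 to 0.34 without pairs and from -0.01 to 0.18 with pairs (limma, adjusted p = 1.0 and 0.526). Nr1h3, which encodes LXRα, had between 1 and 14 reads per library, with means of 0.183 ± 0.0984 and 0.182 ± 0.0885 FPKM (SD, n = 5 each), and was below the filter.

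Nr1h2 lies on chromosome 7 from 44199040 to 44203375 (ENSMUSG00000060601) and Nr1h3 on chromosome 2 from 91014406 to 91033179 (ENSMUSG00000002108), both on the minus strand. The genes closest in pattern to Nr1h2 were Stx16 (r = 0.99), 9930021J03Rik and Atraid (both r = 0.97).

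Among 18 listed LXR targets, which include Nr1h3 itself, 9 were tested and 0 passed in either fit. In 3 of the 9 WY-14643 was higher in 5 of 5 pairs, as in 5.63% of all tested genes, and in 1 lower, as in 6.09%. The efflux transporters that usually report LXR activity, Abca1, Abcg1, Abcg5 and Abcg8, averaged at most 0.0596 FPKM in either group. Scd2, a fatty acid desaturase and the most abundant target, was at 513 ± 163 and 579 ± 131 FPKM, and Srebf1, the lipogenic transcription factor gene, at 20.8 ± 2.94 and 22.1 ± 1.52 FPKM.

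Lpcat3, which places polyunsaturated fatty acids in phospholipids, was at 38.4, 48.5, 43.4, 26.5 and 53.9 FPKM in vehicle and 58.3, 67.9, 62.9, 41.5 and 59.6 FPKM in WY-14643 libraries. Of these, WY-14643 replicate 9 alone fell inside the vehicle range. The log2 fold change was 0.47 ± 0.19 (SE; limma, adjusted p = 1.0, and 0.0684 with pairs), and it passed with pairs when pair 5 was left out (0.0238). Arl4c, a small GTPase gene, went the other way, at 23.4 ± 6.94 and 19.1 ± 5.75 FPKM (limma, adjusted p = 0.093 with pairs). It was lower in 5 of 5 pairs, as were 6.09% of all tested genes. With pairs and voom, 1 gene of the list was called higher, Lpcat3, and 1 lower, Arl4c.

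Nr1h4, the gene of the bile acid receptor FXR, varied most among the abundant members. It was at 3.22, 19.0, 10.1, 11.7 and 2.17 FPKM in vehicle and 9.49, 18.0, 11.5, 15.5 and 2.34 FPKM in WY-14643 libraries, an 8.76-fold range. Replicates 5 and 10 were low and replicates 2 and 7 high, so the groups overlapped over nearly their whole range. Differences between pairs took up 89.8% of its sum of squares on the log2(FPKM + 1) scale and treatment 3.72%, where the medians over all tested genes were 83.6% and 2.27%. The share between pairs was larger still for Tiparp (92.6%) and Nr1h2 (91.6%), and smaller for Ahr, Nr1i2 and Vdr.

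Its log2 fold change was 0.37 ± 0.59 (SE), with an interval from -0.92 to 1.67 (limma, adjusted p = 1.0, and 0.564 with pairs). It came largely from pair 1, with a difference of 1.31, and the mean was 0.14 without that pair. The gene lies on chromosome 10 from 89290096 to 89369447 on the minus strand (ENSMUSG00000047638). Closest to it in pattern were Btnl4 (r = 0.99), Cyp4f40 and Egln3 (both r = 0.98), and Egln3 was also the closest to Tiparp (r = 0.98).

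FXR's targets ranged from absent to several FPKM. Nr0b2, the repressor SHP through which FXR lowers bile acid synthesis in liver, had 0 reads in 10 libraries, which allows up to 3 reads, or 0.0913 to 0.168 FPKM, in each, as counting error only. Of 14 listed FXR targets, Nr0b2 included, 4 were tested and 0 passed. Fgf15, the gut hormone gene that FXR induces in the ileum, averaged 1.05 ± 1.08 and 0.897 ± 1.03 FPKM, and was highest in vehicle replicate 4 (2.78 FPKM) and its match (2.66 FPKM). The sum of the small intestinal markers was also highest in these libraries of their groups, at 36.8 and 76.6 FPKM. It came from Alpi (26.6 and 49.5 FPKM) and Fabp2 (10.2 and 27.0 FPKM), with the other 4 markers near 0. The colonocyte marker Krt20 was highest there too, at 129 and 169 FPKM, and the part of all these markers was not tested. Slc10a2, the ileal bile acid importer gene, was at 3.74 ± 3.14 and 3.17 ± 2.80 FPKM, Slc51b, an exporter subunit, at 0.582 ± 0.715 and 0.426 ± 0.340, and Car12 at 7.16 ± 2.97 and 8.10 ± 3.61 FPKM. Nr0b2 lies on chromosome 4 from 133280687 to 133283847 (ENSMUSG00000037583).

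Vdr, the vitamin D receptor gene, was at 0.931, 3.47, 1.59, 1.72 and 0.710 FPKM in vehicle and 2.84, 3.07, 1.58, 2.02 and 0.466 FPKM in WY-14643 libraries, from 61 to 570 reads. As for Nr1h4, replicates 2 and 7 were high and 5 and 10 low, and WY-14643 replicate 6 stood 3.05-fold above its match. The log2 fold change was 0.16 ± 0.32 (SE), with an interval from -0.55 to 0.87 (limma, adjusted p = 1.0, and 0.814 with pairs), and its sign turned without pair 1 (-0.05). It was higher in 2 of 5 pairs. Vdr lies on chromosome 15 from 97752306 to 97808511 on the minus strand (ENSMUSG00000022479), and its nearest genes in pattern were Abhd2, Arhgap32 and Plin3 (all r = 0.95).

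Of 13 listed VDR targets 3 were tested and 0 passed. Cyp24a1, the vitamin D hydroxylase whose gene is the most direct reporter of VDR, averaged 0 and 0.00337 FPKM, the calcium channel gene Trpv6 0.105 and 0.0745 FPKM, and the calcium-binding protein gene S100g 0.199 and 0.264 FPKM. The calcium pump gene Atp2b1 was at 30.5 ± 15.6 and 31.2 ± 16.6 FPKM. The claudin gene Cldn2 was at 20.7 ± 13.2 and 18.5 ± 12.4 FPKM (limma, adjusted p = 0.352 with pairs). It was lower in 5 of 5 pairs, as were 6.09% of all tested genes. Cldn12 was at 24.8 ± 4.15 and 24.7 ± 2.15 FPKM.

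The sum of the colonocyte markers, mainly Car1, went with several sensors in some pairs of libraries. The summed FPKM of Car1, Car4, Aqp8, Slc26a3, Krt20 and Guca2a ranged from 28.7 to 970 in vehicle and from 51.5 to 1811 in WY-14643 libraries. It was 28.7 and 51.5 in replicates 5 and 10, where Nr1h4, Vdr and Tiparp were lowest, and 970 and 897 in replicates 2 and 7, where Nr1h4 and Vdr were highest. In pair 1 it went from 154 to 429, where Nr1h4 and Vdr were also higher in value, and in 4 of 5 pairs it was higher in the WY-14643 library. The orders were not the same throughout, since the highest sum, 1811, was in WY-14643 replicate 9. Car1 alone gave 887 and 827 FPKM of the sums in replicates 2 and 7. Krt20, the other abundant marker, was at 64.9 and 54.9 FPKM there and highest in replicates 4 and 9 (129 and 169 FPKM). Like the sum, it was lowest in replicates 5 and 10 (6.12 and 6.92 FPKM). Slc26a3, at a low level, was highest in replicates 2 and 7 (3.49 and 3.48 FPKM). Of these 6 markers 4 were tested and 0 called in either fit. In bulk RNA fewer cells of a type and less RNA per cell cannot be told apart, and the part of these markers in the results was not tested. Cycling markers summed to 44.6 to 259 FPKM in vehicle and 56.0 to 243 in WY-14643 libraries, and goblet markers to 33.1 to 73.1 and 18.3 to 72.5 FPKM.

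**Figure D3:**
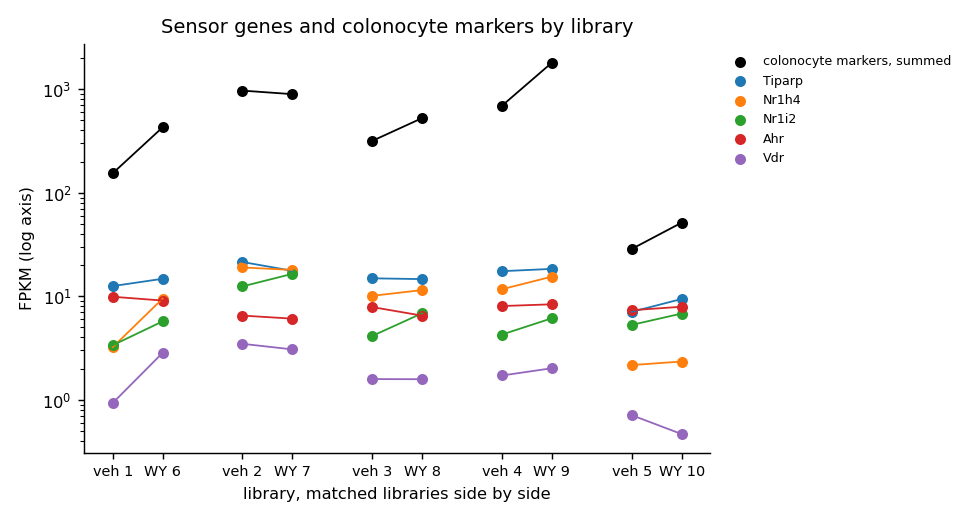
FPKM (log axis) of 5 sensor genes and the summed FPKM of 6 colonocyte markers in each library, with matched libraries joined (veh, vehicle; WY, WY-14643). Nr1h4 and Vdr are lowest where the marker sum, mainly Car1, is lowest, in replicates 5 and 10, and Ahr stays between 6.08 and 9.90 FPKM.

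Ahr, the receptor gene of this system, ranged 1.63-fold over the libraries. It was at 9.90, 6.51, 7.87, 8.05 and 7.34 FPKM in vehicle and 9.10, 6.08, 6.50, 8.37 and 7.92 FPKM in WY-14643 libraries. Vehicle replicate 1 and its match were highest, and replicates 2 and 7, highest for Nr1i2, Nr1h4 and Vdr, were the low end here. The log2 fold change was -0.06 ± 0.13 (SE), with an interval from -0.34 to 0.23 without pairs and from -0.20 to 0.08 with pairs (limma, adjusted p = 1.0 and 0.793). Ahr lies on chromosome 12 from 35547973 to 35585037 on the minus strand (ENSMUSG00000019256). Its nearest genes in pattern were Ofd1, Ptpre and Fnbp1 (all r = 0.95).

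Neither feedback gene of AhR passed a test. Tiparp, whose product modifies AhR and marks it for removal, was at 12.5, 21.4, 14.9, 17.5 and 7.08 FPKM in vehicle and 14.8, 17.6, 14.7, 18.4 and 9.42 FPKM in WY-14643 libraries. Replicates 5 and 10 were lowest, and the groups overlapped throughout. The log2 fold change was 0.07 ± 0.26 (SE), with an interval from -0.51 to 0.66 (limma, adjusted p = 1.0, and 0.832 with pairs). It was higher in 3 of 5 pairs, and its sign turned without vehicle replicate 5 (-0.15), without WY-14643 replicate 9 (-0.01) or without pair 5 in the matched fit (-0.0012).

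Ahrr, whose product competes with AhR for ARNT, was at 0.0371, 0.120, 0.126, 0.134 and 0.119 FPKM in vehicle and 0.113, 0.309, 0.114, 0.113 and 0.128 FPKM in WY-14643 libraries. These values rest on 6 to 49 reads per library. WY-14643 replicate 7 stood alone at the top and vehicle replicate 1 alone at the bottom, and the other 8 lay between 0.113 and 0.134 FPKM. With no filter Ahrr did not pass (limma, adjusted p = 1.0, and 0.771 with pairs). Tiparp lies on chromosome 3 from 65435831 to 65462939 (ENSMUSG00000034640) and Ahrr on chromosome 13 from 74359237 to 74440450 (ENSMUSG00000021575).

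AhR targets ranged from absent to abundant. Of 11 listed, with Ahrr and Tiparp among them, 7 were tested and 0 passed in the fit without pairs or in the matched fit. Means were higher in 6 of the 7, with a median log2 fold change of 0.36 against -0.01 over all tested genes, and 4 of the 7 were higher in 5 of 5 pairs, as were 5.63% of all tested genes. Cyp1a1, the P450 gene that most directly reports AhR, was at or below 0.109 FPKM in every library, and Cyp1a2 was at 0.

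Aldh3a1, an aldehyde dehydrogenase, was at 3.88, 2.54, 3.39, 1.47 and 4.13 FPKM in vehicle and 11.1, 5.58, 13.0, 9.52 and 7.005 FPKM in WY-14643 libraries. Every WY-14643 library stood above every vehicle library. Its log2 fold change of 1.32 ± 0.25 (SE) had an interval from 0.77 to 1.87, yet it did not pass over all genes (limma, adjusted p = 0.253, and 0.083 with pairs). It passed with library weights (0.0343) and with voom and pairs (0.0139).

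Cyp1b1, a P450 of the same family as Cyp1a1, was at 7.16, 2.70, 2.97, 2.01 and 1.77 FPKM in vehicle and 19.0, 3.94, 6.80, 5.43 and 3.64 FPKM in WY-14643 libraries. Pair 1 was highest in both groups, and the WY-14643 library was the higher in each of the 5 pairs. The matched adjusted p was 0.0536, just above the threshold, and it passed with a pseudocount of 0.1 (0.0378), with total-read scaling (0.0418) and with voom (9.97e-05). Nqo1, a quinone reductase that NRF2 also controls, averaged 32.3 ± 16.1 and 55.5 ± 24.0 FPKM (limma, adjusted p = 0.115 with pairs, and 0.0219 with voom and pairs). Ugt1a6a, whose exons are partly shared with other Ugt1a genes, averaged 0.525 ± 0.282 and 0.984 ± 0.571 FPKM (limma, adjusted p = 0.210 with pairs, and 0.0147 with voom and pairs). Nfe2l2, the gene of NRF2 itself, averaged 114 ± 7.49 and 123 ± 8.17 FPKM.

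**Figure D4:**
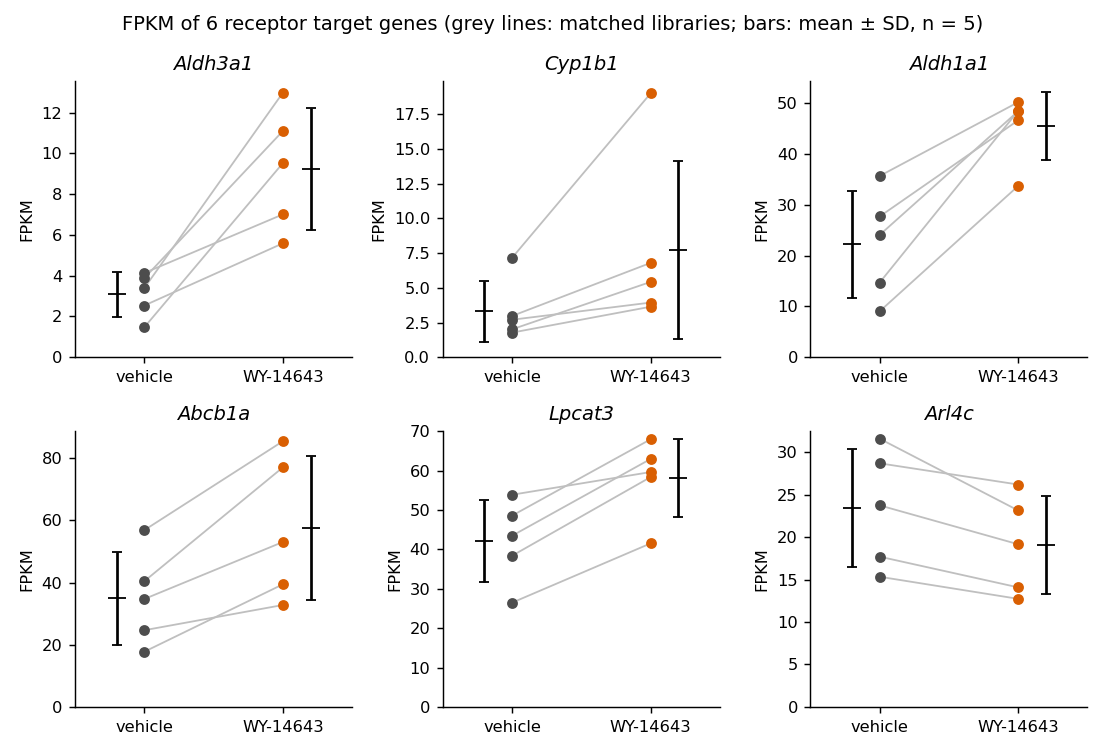
FPKM (vertical axes, from 0) of 2 AhR targets (Aldh3a1, Cyp1b1), 2 PXR and CAR targets (Aldh1a1, Abcb1a) and 2 LXR targets (Lpcat3, Arl4c), chosen after their values were seen, in vehicle and WY-14643 libraries, with matched libraries joined and the mean ± SD of 5 libraries. Within pairs the values of Arl4c go down and those of the other 5 genes go up, and among these 6 genes only the groups of Aldh3a1 do not overlap.

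The partners of the sensors differed little between the groups. Of 15 listed partners and chaperones 13 were tested, with log2 fold changes from -0.12 to 0.06 and a median of 0.01, and 0 passed in either fit. The RXR genes Rxra (11.9 ± 2.18 and 12.1 ± 1.76 FPKM) and Rxrb (12.8 ± 2.45 and 12.8 ± 1.95 FPKM) stood at like levels, and Rxrg was at 0. Arnt, the AhR partner gene, was at 9.18 ± 1.22 and 9.33 ± 0.608 FPKM, and Hsp90ab1, the chaperone gene that leads the list in level, at 1044 ± 124 and 962 ± 159 FPKM.

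Targets of PPARα, the receptor that WY-14643 activates, are given for scale. Of 14 listed, 12 were tested, all 12 with a higher mean, and the median log2 fold change was 0.74. The matched fit called 6 higher and 0 lower, against 0.287% and 0.0294% of all tested genes, and the fit without pairs 0. Those 6 were Cpt1a, Acadl, Acaa2, Ehhadh, Slc25a20 and Pex11a, genes of fatty acid oxidation and of the peroxisome. Their log2 fold changes ran from 0.58 (Ehhadh) to 1.15 (Cpt1a), beside 0.47 for Nr1i2.

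**Figure D5:**
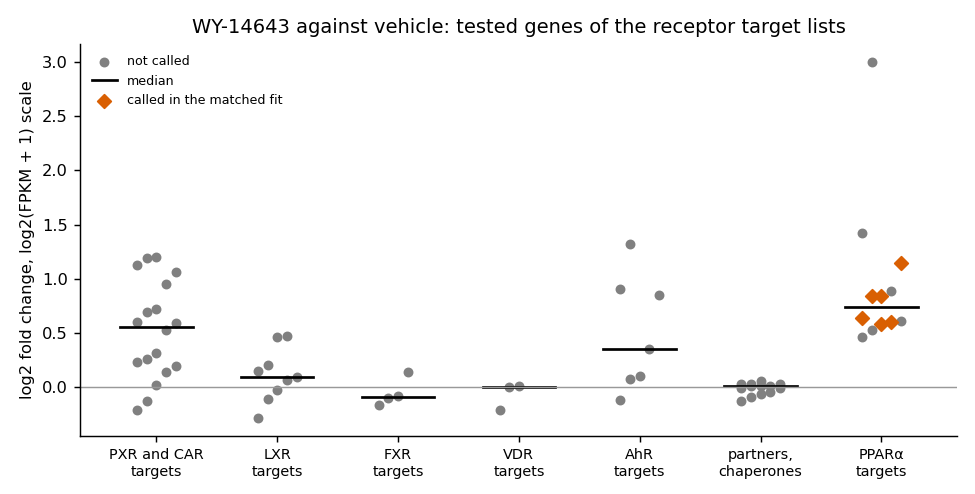
Log2 fold change of WY-14643 against vehicle, on the log2(FPKM + 1) scale, for the tested genes of each target list (points), with the list's median as a black line. Orange diamonds mark genes called in the matched fit, all 6 of them PPARα targets. Partners and chaperones lie within -0.12 to 0.06.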

How the data were processed

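RNA of 10 colon organoid libraries was analysed from 1 deposited gene table. The deposited values are FPKM. The submitters' processing notes name build mm39 and the tools featureCounts (1.5.0-p3) and HISAT2 (2.0.5). Which annotation release, strand setting and library scaling were chosen is not given in the sources, so overlapping and antisense genes cannot be told apart. Per the labels' protocols, poly-T beads were used to capture messenger RNA.

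FPKM multiplied by the gene length column, which the deposited table also holds, came out as whole multiples of the smallest value in each library (100% within 0.01), which gave the reads. No 2 libraries held identical values. A mean FPKM of 0.5 or more was required, which left 13607 genes or 24.0% of the table. These were fitted with limma 3.58.1 in R 4.3.3 on log2(FPKM + 1) (eBayes with trend and robust priors, no covariate). P-values were adjusted by Benjamini-Hochberg over all tested genes, with a threshold of 0.05. Log2 fold changes of low genes are understated on this scale. The matched fit adds pair as a block. Intervals are at 95%, from limma's SE and degrees of freedom. Fits were also run on simulated data built with these pairs, which is no test of the match of libraries. Figures used matplotlib 3.10.9 in Python 3.11.15.

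The members, target lists and marker lists were chosen with earlier results of these data known, as was the match of libraries. Genes named are all members, up to 4 tested genes with the smallest p, the 2 most abundant and any called in each target list, and the 3 protein-coding genes nearest in pattern to each tested member (highest Pearson correlation of log2 values, mean FPKM of at least 1). Some genes of this rule are not reported here, and other targets in the text were chosen after their values were seen. Alternatives were pseudocount, filter, voom, scaling, priors, library weights, pairing and leaving out libraries.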

Additional observations from a re-analysis of the deposited data

Results flagged for a closer look

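Within-group spread singled out 4 of the 18 groups of 5 libraries that could be examined (Dixon's criterion, which chance meets in about 1 group in 20). Nr1i2 in vehicle replicate 2 was at 12.5 FPKM, where the other 4 vehicle libraries lay between 3.36 and 5.30 FPKM. Nr1i2 in WY-14643 replicate 7, its match, was at 16.5 FPKM, where the others lay between 5.72 and 6.86 FPKM. Ahrr in vehicle replicate 1 was at 0.0371 FPKM, from 6 reads, below the 0.119 to 0.134 FPKM of the other vehicle libraries. Ahrr in WY-14643 replicate 7 was at 0.309 FPKM, from 49 reads, above the 0.113 to 0.128 FPKM of the rest. Of these 4 values 3 come from the same matched pair and are not independent of each other.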

How the results depend on the processing

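Without pairs, every alternative left the count of members called at 0 higher and 0 lower. With a replicate block the count of members higher was 1 in the matched fit, 1 with voom and 1 with total-read scaling, and 0 with no filter, with a pseudocount of 0.1 or without any 1 pair. The counts of all genes higher and lower were 18 and 3 with library weights, 39 and 4 with the replicate block, 2 and 0 with the block and no filter, 37 and 3 with the block and a pseudocount of 0.1, 190 and 49 with the block and voom, and 46 and 5 with the block and total-read scaling. Leaving out 1 library or pair gave 0 to 30 genes higher and 0 to 6 lower. Without vehicle replicate 2, vehicle replicate 5 and WY-14643 replicate 10 the fit without pairs called 1, 2 and 1 genes, all higher. The matched fit called 27, 3, 2, 12 and 30 genes higher without pairs 1 to 5.

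Signs turned for genes with small differences when a library or pair was left out, with none called. Log2 fold changes then ranged from -0.052 to 0.39 for Vdr, -0.12 to 0.017 for Ahr, -0.15 to 0.22 for Tiparp, -0.10 to 0.28 for Gsta4, -0.38 to 0.15 for Fgf15, -0.22 to 0.15 for Slc51b, -0.54 to 0.16 for Slc10a2, -0.014 to 0.31 for Car12, -0.25 to 0.28 for Atp2b1, -0.54 to 0.20 for Cldn2, -0.076 to 0.080 for Cldn12, -0.17 to 0.13 for Hsp90aa1, -0.16 to 0.063 for Ptges3 and -0.0029 to 0.14 for Ncoa1. Slc51b was also positive with a pseudocount of 0.1 (0.16 with and without pairs) and with voom (0.35), and Cldn12 negative with library weights (-0.017). The causes were not tested. Nr1i3, Nr1h3, Ahrr and Nr0b2 are limited by their reads, and no alternative called them.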
